A study of Mus musculus with 6 samples.

Results

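Heat shock proteins and their co-chaperones were described in dermal fibroblasts of wild-type and RORγ-/- mice that had been exposed to hydroxylated sterols. The group was set by gene symbol and comprised Hspb1, Hspb8, Cryab, Hspa1a, Hspa1b, Hspa8, Hsp90aa1, Hsph1, Dnajb1 and Hsf1. A row of its own was found for 9 of the 10 listed genes among the 46958 rows of the expression table. Hspa8 occurs only in a row merged with Snord14c, Snord14d and Snord14e, small nucleolar RNA genes inside it, so its values are given separately as those of the merged row.

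RNA was sequenced from 6 libraries, 1 for each combination of genotype and sterol, so the 3 libraries of a genotype differ in sterol and none repeats another. Fibroblasts came from the skin of mice 1 to 2 days old, either RORγ+/+ (wild type) or RORγ-/- (here "knockout-labelled"), and cells from different animals were pooled at an early passage. All 6 cultures were in medium with 10% charcoal-stripped serum and received sterol at 100 nM, in ethanol at 0.1%, for 24 h. The sterols were 20(OH)L3 (20-hydroxylumisterol), 20(OH)Cholesterol and 20(OH)7DHC (hydroxylated 7-dehydrocholesterol). No ethanol-only library was analysed here, so every value is from sterol-treated cells and an effect of sterol itself was not measured. The sources used here name neither the strain nor the targeted allele.

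Heat shock proteins keep other proteins folded. HSP70 proteins bind unfolded stretches with the help of J-domain (HSP40) co-chaperones, HSP110 proteins exchange their nucleotide, HSP90 finishes the folding of kinases and of steroid hormone receptors, and small heat shock proteins hold misfolded proteins and bind actin and intermediate filaments. Heat shock factor 1 (HSF1) is held inactive by chaperones in unstressed cells and, once released, binds heat shock elements, inverted repeats of GAA, in the promoters of many of these genes. In fibroblasts the small heat shock proteins are also known as partners of the contractile cytoskeleton.

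Promoter sequences show where such elements lie. RefSeq windows on GRCm38.p6, from 250 bases before the transcription start to 50 after it, were held for 6 of the 10 listed genes. They were searched on both strands for 2-unit heat shock elements (GAANNTTC or TTCNNGAA), for 3-unit elements (a 2-unit element followed by NN and a further unit in alternating orientation, which therefore contains 2 overlapping 2-unit matches), for CCAAT and for TATAAA. The sequences below are shown because their genes had non-overlapping genotype values or hold the 3-unit element. They run 5′ to 3′ along the gene's strand, from 250 bases before the start to 30 after it, with heat shock element matches in capitals.

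Hspb1, chr5:135887669-135887948, plus strand: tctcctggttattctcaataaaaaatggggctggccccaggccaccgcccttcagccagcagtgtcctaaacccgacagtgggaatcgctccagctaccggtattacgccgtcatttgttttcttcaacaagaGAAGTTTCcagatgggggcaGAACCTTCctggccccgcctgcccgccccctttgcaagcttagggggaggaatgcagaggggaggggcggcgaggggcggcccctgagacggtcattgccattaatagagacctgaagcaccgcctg

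Hspb8, chr5:116422835-116423114, minus strand: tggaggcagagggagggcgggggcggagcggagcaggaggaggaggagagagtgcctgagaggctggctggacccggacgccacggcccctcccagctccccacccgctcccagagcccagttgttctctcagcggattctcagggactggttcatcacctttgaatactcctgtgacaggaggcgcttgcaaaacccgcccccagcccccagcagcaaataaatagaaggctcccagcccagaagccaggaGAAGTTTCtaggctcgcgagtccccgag

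Hspa1a, chr17:34972127-34972406, minus strand: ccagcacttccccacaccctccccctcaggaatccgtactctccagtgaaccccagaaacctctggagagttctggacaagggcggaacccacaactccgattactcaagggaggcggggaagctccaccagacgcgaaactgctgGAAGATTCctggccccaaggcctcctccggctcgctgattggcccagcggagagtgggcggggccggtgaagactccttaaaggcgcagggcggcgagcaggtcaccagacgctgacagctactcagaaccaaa

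Hspa1b, chr17:34959209-34959488, minus strand: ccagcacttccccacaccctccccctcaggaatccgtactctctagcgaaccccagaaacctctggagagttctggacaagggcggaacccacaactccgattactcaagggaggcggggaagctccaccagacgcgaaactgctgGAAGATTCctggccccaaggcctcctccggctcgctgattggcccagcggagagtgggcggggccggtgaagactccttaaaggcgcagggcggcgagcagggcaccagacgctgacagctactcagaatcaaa

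Hsph1, chr5:149636286-149636565, minus strand: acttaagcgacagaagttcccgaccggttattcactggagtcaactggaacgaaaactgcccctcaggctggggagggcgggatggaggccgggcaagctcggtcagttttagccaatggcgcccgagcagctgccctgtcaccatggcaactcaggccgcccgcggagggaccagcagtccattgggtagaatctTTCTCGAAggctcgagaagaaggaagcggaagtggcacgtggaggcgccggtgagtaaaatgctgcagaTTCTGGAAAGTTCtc

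A 2-unit match was present in 5 of the 6 genes, against 15.1% of 32851 RefSeq windows of the same length. The Hspb1 window held a pair of them, beginning 117 and 97 bases upstream of the start. Hspa1a and Hspa1b each held 1, beginning 104 bases upstream, with a CCAAT box on the opposite strand 67 bases upstream, and their printed promoters were equal at 276 of 280 bases. In Hspb8 the match began at base 3 of the transcript. Hsph1 alone among the 6 held a 3-unit match, at base 16 of the transcript, where 0.603% of all windows held one, and a separate 2-unit match 54 bases upstream. CCAAT boxes lay 137 and 68 bases upstream of Hsph1 and 151 bases upstream of the first of the Dnajb1 starts, and 37.4% of all windows held one. No TATAAA was found in these windows, while 13.6% of all windows had it. A match is only a run of letters and was not tested for binding.

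Depth, estimated from the smallest steps between low values, was 7650000 to 13250000 fragments a library, so that 1 fragment on a 2 kb transcript was worth 0.0417 to 0.0722 FPKM (fragments per kilobase of transcript, scaled to the library's depth). Depth here is the divisor behind the FPKM values, and whether it equals the fragments sequenced was not checked. The knockout-labelled 20(OH)L3 and 20(OH)Cholesterol libraries were the shallowest by this estimate, at 9000000 and 7650000 fragments. Their FPKM values summed to 1775200 and 1597790, against 866528 to 931596 in the other libraries, so FPKM does not share a common total. Of 12673 rows that averaged at least 1 FPKM, limma called 1150 (9.07%) between the genotypes at an adjusted p under 0.05, 308 higher (2.43%) and 842 lower (6.64%) in the knockout-labelled libraries. With quantile scaling the split was 557 higher and 848 lower. The knockout-labelled 20(OH)7DHC library stood closer to its wild-type partner than the other knockout-labelled libraries did. Differences of at least 1 in log2(FPKM + 1) took in 4.59% of rows higher and 10.1% lower within 20(OH)7DHC, against 17.0% and 16.5% within 20(OH)L3 and 14.3% and 15.4% within 20(OH)Cholesterol. Transcript length moved with genotype under the same 2 sterols: protein-coding genes with transcripts under 1 kb had a median log2 difference of 1.23 under 20(OH)L3, 1.02 under 20(OH)Cholesterol and 0.03 under 20(OH)7DHC, and those of 4 kb or more had -0.31, -0.33 and -0.00. Y-linked Eif2s3y read 26.9 to 35.0 FPKM in wild type and 0 to 1.41 in the knockout-labelled libraries, so the sex make-up of the pools and the genotype cannot be told apart. Fibroblast markers summed to 6838 to 7131 FPKM in wild type and to 4459 to 5879 in the knockout-labelled libraries, with 7 of 10 at 1 FPKM or more. Vim, which other mesenchymal cells also express, carried that sum with 2844 to 3345 FPKM in wild type and 4074 to 5014 in the knockout-labelled libraries. The other 7 markers with a row were all lower in every knockout-labelled library and summed to 3511 to 4287 FPKM in wild type and 384 to 866 in the knockout-labelled libraries. Dcn, the matrix proteoglycan decorin, read 1148 to 1489 FPKM against 5.74 to 21.2, and Lum, lumican, 10.2 to 19.3 FPKM against 0 to 0.0687. The skeletal muscle list, whose tissue is rich in Cryab and Hspb8, summed to at most 3.85 FPKM in any library, with Myl1 at 0 in all 6. Their part in the results was not tested, and in bulk RNA fewer cells of a type cannot be told apart from less RNA per cell.

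**Figure D1:**
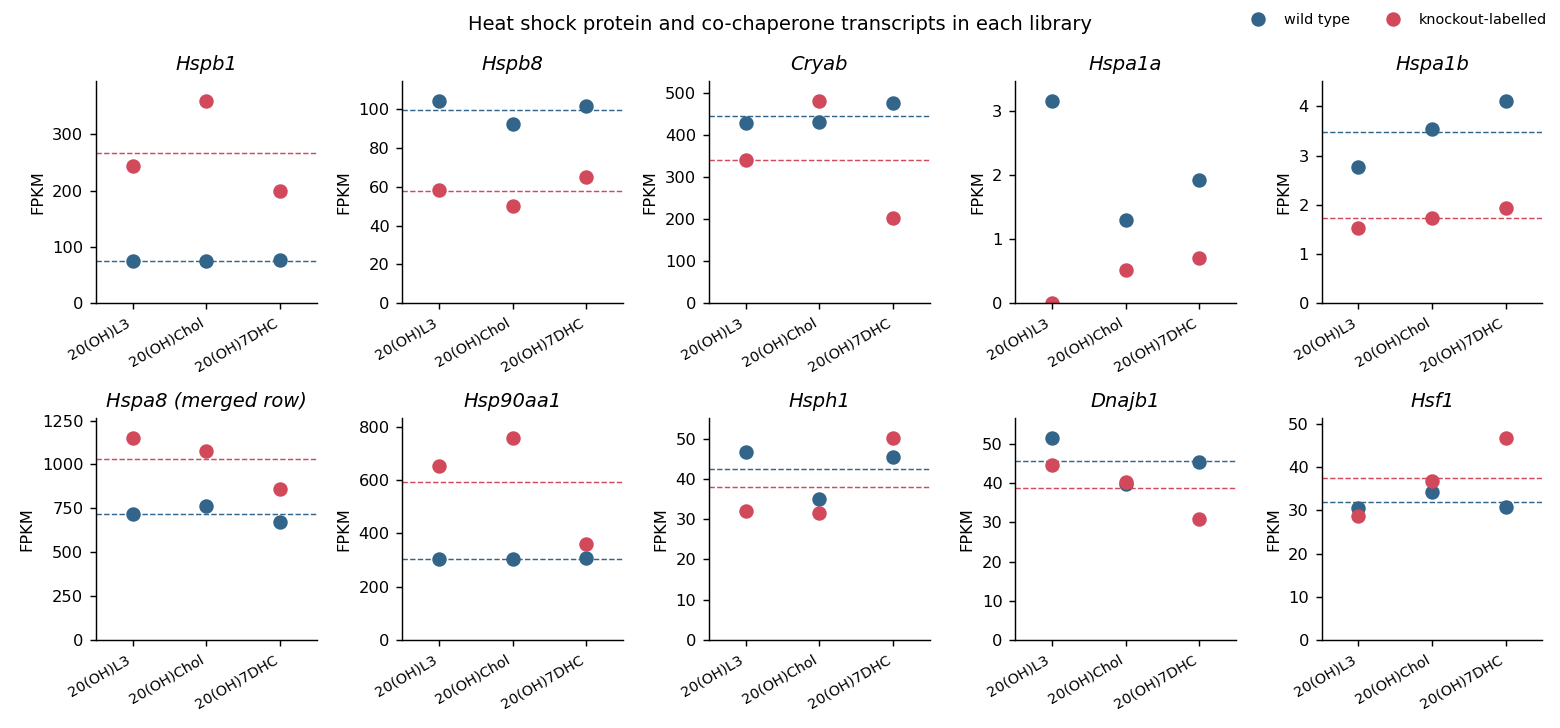
Level of each listed heat shock gene in FPKM (linear axis from 0) under each of the 3 sterols, with 1 point a library, blue for wild type and red for knockout-labelled, and dashed lines for the mean of the 3 libraries except for Hspa1a, which is listed at 0 in 1 library. Hspb1, Hsp90aa1 and the merged row with Hspa8 lie higher, and Hspb8, Hspa1a and Hspa1b lower, in all 3 knockout-labelled libraries.

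Among the small heat shock proteins, Hspb1 rose, by 3.40-fold on the fitted scale, and was the only listed gene past the genotype test. HSPB1 (HSP25 in mouse) binds misfolded proteins and, when not phosphorylated, caps actin filaments. Hspb1 (GRCm38 chromosome 5, 135887919 to 135889563, plus strand) read 75.3, 74.6 and 76.8 FPKM in the wild-type libraries under 20(OH)L3, 20(OH)Cholesterol and 20(OH)7DHC, a mean of 75.6 ± 1.15 (SD, n = 3). The knockout-labelled libraries read 244, 359 and 199 FPKM in the same order, a mean of 267 ± 82.4 (SD, n = 3). All 3 knockout-labelled values lay well above a tight wild-type range, the highest under 20(OH)Cholesterol and the lowest under 20(OH)7DHC. Within sterols the FPKM ratio of knockout-labelled to wild type was 3.24, 4.81 and 2.59. The log2 difference in FPKM + 1 was 1.76 (SE 0.256, 95% CI 1.11 to 2.42, limma adjusted p = 0.0222). Hspb1 was 1 of 9 members tested and 1 higher call stands beside a background of 2.43% of rows. With the trend on transcript length removed, the difference was 1.31 (limma adjusted p = 0.0272), and without the library that stood closer to wild type it was 1.97 (limma adjusted p = 0.0417). That library, of 20(OH)7DHC, also gave the smallest difference for Hspb1, so leaving it out had to raise the estimate. The call was lost without any 1 of the 4 libraries of 20(OH)L3 or 20(OH)Cholesterol (limma adjusted p 0.166 to 0.212) and when rows of any level were tested (limma adjusted p = 0.0704). Of the 50-base words in its longest transcript, 51.6% also occur in the copy Hsp25-ps1, whose own row reached at most 2.64 FPKM, so the division of reads between them is uncertain.

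HSPB8 works with BAG3 to pass misfolded proteins, including filamin, to autophagy. Hspb8 (chromosome 5, 116408491 to 116422864, minus strand) read 104, 92.7 and 102 FPKM in wild type, a mean of 99.6 ± 6.11 (SD, n = 3), in the same sterol order. The knockout-labelled libraries gave 58.4, 50.02 and 65.2 FPKM, a mean of 57.9 ± 7.63 (SD, n = 3). Every knockout-labelled value was below every wild-type value, in the opposite direction to Hspb1, and the ratios of 0.560, 0.539 and 0.640 were close to each other. The log2 difference of -0.78 (SE 0.190, 95% CI -1.27 to -0.29) did not pass the test (limma adjusted p = 0.0680). It did pass with the length trend removed, at -0.98 (limma adjusted p = 0.0426), and without the knockout-labelled 20(OH)7DHC library, at an adjusted p of 0.0491 from limma. The difference was smallest under 20(OH)7DHC, so leaving that library out had to enlarge it. Without any 1 library of 20(OH)L3 or 20(OH)Cholesterol the adjusted p from limma was 0.354 to 0.378.

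CRYAB, αB-crystallin, is the small heat shock protein of lens and striated muscle and binds desmin and vimentin filaments. Cryab (chromosome 9, 50751325 to 50756636, plus strand) was the most abundant single-gene row of the group in wild type, at 428, 432 and 477 FPKM, a mean of 446 ± 27.3 (SD, n = 3). In the knockout-labelled libraries it read 340, 481 and 203 FPKM, a mean of 341 ± 139 (SD, n = 3). The genotypes overlapped: the knockout-labelled 20(OH)Cholesterol library was the highest of all 6 and the 20(OH)7DHC library the lowest. The log2 difference was -0.33 under 20(OH)L3, 0.16 under 20(OH)Cholesterol and -1.23 under 20(OH)7DHC, and the joint estimate of -0.47 (SE 0.341, 95% CI -1.34 to 0.41) did not pass (limma adjusted p = 0.367). With quantile scaling it was -0.97 (limma adjusted p = 0.052) and with the length trend removed -0.91 (limma adjusted p = 0.0736). Without the knockout-labelled 20(OH)7DHC library it was -0.09 (limma adjusted p = 0.7525). Hspb2, its neighbour on the other strand, shares 252 of the 1479 exonic bases of Cryab, and the strand setting of the counting is not given, so reads there cannot be told apart. Hspb2 read 8.96, 8.86 and 6.66 FPKM in wild type and 11.2, 10.3 and 1.76 FPKM in the knockout-labelled libraries. Like Cryab it was lowest in the knockout-labelled 20(OH)7DHC library. For Hspb7, a small heat shock protein of heart, the log2 difference was -0.18 (limma adjusted p = 0.771). Of the 5 small heat shock genes tested, 1 (Hspb1) rose and none fell, beside 2.43% of all rows called higher and 6.64% lower. Their median difference was -0.33 where that of all rows was -0.00.

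The stress-inducible HSP70 genes were among the least abundant of the group. HSPA1A and HSPA1B are nearly identical proteins from neighbouring genes, at low level in unstressed cells and strongly induced by heat. Hspa1b (chromosome 17, 34956436 to 34959238, minus strand) read 2.77, 3.55 and 4.10 FPKM in wild type, a mean of 3.47 ± 0.669 (SD, n = 3). It read 1.52, 1.73 and 1.93 FPKM in the knockout-labelled libraries, a mean of 1.73 ± 0.204 (SD, n = 3). These ranges did not overlap, but the log2 difference of -0.71 (SE 0.234, 95% CI -1.31 to -0.11) did not pass (limma adjusted p = 0.114). Hspa1a (chromosome 17, 34969190 to 34972156, minus strand) read 3.15, 1.30 and 1.92 FPKM in wild type. In the knockout-labelled libraries it was listed at 0 under 20(OH)L3 and read 0.512 and 0.704 FPKM under 20(OH)Cholesterol and 20(OH)7DHC. Again no knockout-labelled value reached a wild-type one, and the difference of -1.14 (SE 0.409, 95% CI -2.19 to -0.09) on the log2(FPKM + 1) scale, which understates low levels, did not pass (limma adjusted p = 0.130).

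These low values rest on few fragments, an estimated 46.8 to 109 a library for Hspa1a in wild type and up to 25.9 in the knockout-labelled libraries, and 34.6 to 140 for Hspa1b over all libraries. Of the 50-base words of the Hspa1a transcript, 58.8% also occur in Hspa1b, so reads could move from one row to the other, and 564 of the 2967 exonic bases of Hspa1a are shared with Gm20481 on the other strand. The sum of both rows depends little on the split between them, since their lengths of 2967 and 2803 nt are near each other. Reads given to other genes would be missing from the sum. That sum was 5.92, 4.84 and 6.02 FPKM in wild type, a mean of 5.59 ± 0.655 (SD, n = 3), and 1.52, 2.24 and 2.63 FPKM in the knockout-labelled libraries, a mean of 2.13 ± 0.565 (SD, n = 3). It was lower in all 3 knockout-labelled libraries, at a ratio of means of 0.381. The sum was taken after the single values had been seen and was not tested.

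HSPA8 (HSC70) is the constitutive HSP70, present in unstressed cells, where it also uncoats clathrin vesicles. The merged row with Hspa8 (chromosome 9, 40800984 to 40810087, plus strand) read 717, 764 and 672 FPKM in wild type, a mean of 718 ± 46.2 (SD, n = 3). It read 1152, 1076 and 863 FPKM in the knockout-labelled libraries, a mean of 1030.1 ± 149.8 (SD, n = 3). All 3 were above the wild-type values, opposite to the inducible HSP70 rows, with a log2 difference of 0.51 (SE 0.269, 95% CI -0.18 to 1.20) that did not pass (limma adjusted p = 0.242). With quantile scaling the difference was 0.01 (limma adjusted p = 0.988), so it depends on the scaling. How much of the row belongs to the small nucleolar RNAs was not measured, and 73.2% of its 50-base words occur in 11 other genes.

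HSP90AA1 is the inducible cytosolic HSP90, which folds kinases and holds steroid hormone receptors ready for ligand. Hsp90aa1 (chromosome 12, 110690605 to 110702728, minus strand) read 304, 303 and 309 FPKM in wild type, a mean of 305 ± 3.03 (SD, n = 3). In the knockout-labelled libraries it read 653, 758 and 362 FPKM, a mean of 591 ± 206 (SD, n = 3). Every knockout-labelled value was higher, at ratios of 2.15 and 2.4996 under 20(OH)L3 and 20(OH)Cholesterol but 1.17 under 20(OH)7DHC. The log2 difference of 0.88 (SE 0.311, 95% CI 0.08 to 1.68) did not pass (limma adjusted p = 0.127). Without the knockout-labelled 20(OH)7DHC library it was 1.21 and passed (limma adjusted p = 0.0440). The difference was smallest under 20(OH)7DHC, so leaving that library out had to raise the estimate. Without any 1 library of 20(OH)L3 or 20(OH)Cholesterol it was 0.67 to 0.77 (limma adjusted p 0.468 to 0.506), and with quantile scaling 0.40 (limma adjusted p = 0.177). Its longest transcript is 3281 nt, a class of 2 to 4 kb whose median differences were -0.01, -0.02 and -0.03 under the 3 sterols. Hsp90ab1, the constitutive partner, read a mean of 638 FPKM in wild type and 948 in the knockout-labelled libraries, a log2 difference of 0.57 (limma adjusted p = 0.195). Of the 50-base words in the longest Hsp90aa1 transcript, 58.5% also occur in 4 other genes, 51.5% in the copy Gm12346. The row of Gm12346 reached at most 1.07 FPKM, so the division of reads between it and Hsp90aa1 is uncertain.

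**Figure D2:**
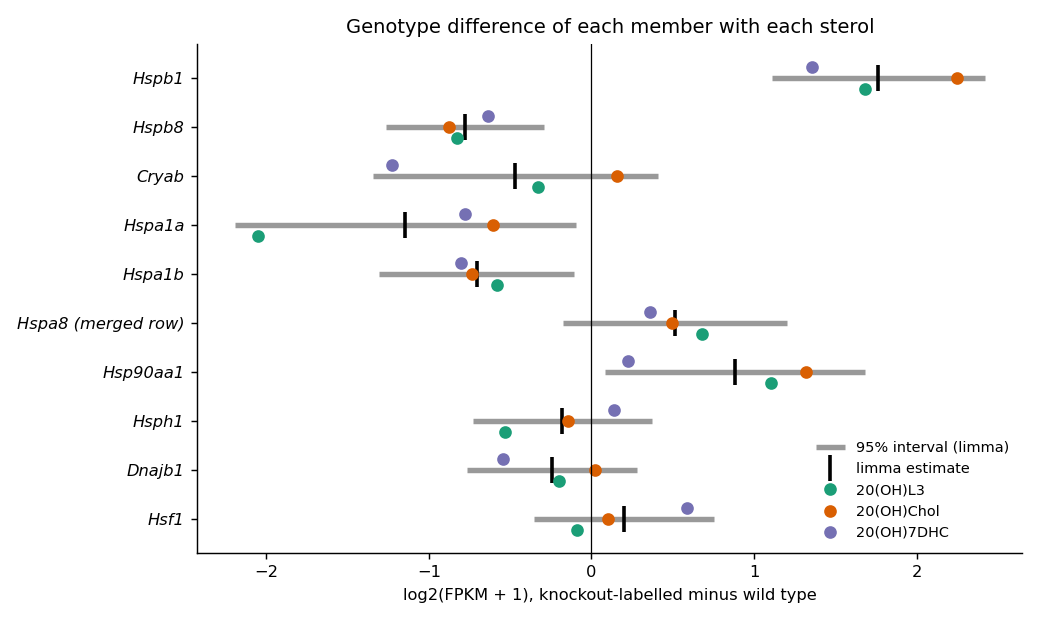
Difference between knockout-labelled and wild-type libraries for each listed gene, in log2(FPKM + 1), with coloured points for the single sterols, black marks for the limma estimate and grey lines for its 95% confidence interval. The estimate for Hspb1 is 1.76 and the only one past an adjusted p of 0.05, and the points of Cryab run from -1.23 to 0.16.

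HSPH1 (HSP110) is the nucleotide exchange factor of HSP70, and DNAJB1 is the J-domain protein that directs HSP70 to stress-damaged proteins. Hsph1 (chromosome 5, 149614287 to 149636376, minus strand) read 46.8, 35.0 and 45.5 FPKM in wild type, a mean of 42.4 ± 6.50 (SD, n = 3). The knockout-labelled values were 32.2, 31.5 and 50.2 FPKM, a mean of 38.0 ± 10.6 (SD, n = 3). They spanned the wild-type range, below it under 20(OH)L3 and 20(OH)Cholesterol and above it under 20(OH)7DHC. The log2 difference was -0.18 (SE 0.214, 95% CI -0.73 to 0.37, limma adjusted p = 0.581). Dnajb1 (chromosome 8, 83608193 to 83612653, plus strand) read 51.6, 39.8 and 45.5 FPKM in wild type, a mean of 45.7 ± 5.87 (SD, n = 3). The knockout-labelled libraries gave 44.7, 40.4 and 30.9 FPKM, a mean of 38.7 ± 7.08 (SD, n = 3). Only the 20(OH)7DHC value lay outside the wild-type range, below it, and the log2 difference was -0.24 (SE 0.205, 95% CI -0.77 to 0.28, limma adjusted p = 0.432).

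HSF1 is regulated mainly after translation, so its messenger RNA does not report its activity. Hsf1 (chromosome 15, 76477422 to 76501913, plus strand) read 30.5, 34.3 and 30.8 FPKM in wild type, a mean of 31.8 ± 2.09 (SD, n = 3). It read 28.7, 36.8 and 46.8 FPKM in the knockout-labelled libraries, a mean of 37.4 ± 9.08 (SD, n = 3). The ranges overlapped, with the knockout-labelled 20(OH)7DHC library the highest, and the log2 difference was 0.20 (SE 0.216, 95% CI -0.35 to 0.75, limma adjusted p = 0.535).

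Over the 9 members with a row of their own, 1 was called higher and 0 lower between the genotypes by limma at an adjusted p under 0.05, and 5 had an unadjusted p under 0.05, as had 33.4% of all rows. All 3 knockout-labelled values were above all wild-type values in 2 (Hspb1 and Hsp90aa1), a pattern seen in 20.2% of all rows tested. They were below in 3 (Hspb8, Hspa1a and Hspa1b), where 22.9% of all rows were, and the genotypes overlapped in 4. The 5 of 9 without overlap stand beside 43.1% of all rows. The count without overlap is near that background, and only Hspb1 passed the test.

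Spread between the libraries of a genotype differed. The coefficient of variation over the 3 sterols was 1.52% for Hspb1 in wild type and 30.8% in the knockout-labelled libraries. For Hsp90aa1 it was 0.993% and 34.8%, and for Cryab 6.12% and 40.7%. Hspb8 varied by 6.13% and 13.2%. Hspa1b alone among the listed genes went the other way, at 19.3% in wild type and 11.8% in the knockout-labelled libraries. Over all rows tested the median was 10.6% in wild type and 32.7% in the knockout-labelled libraries, so the wider knockout-labelled spread was not limited to chaperones.

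Levels per length were ordered alike in part. In wild type the order of FPKM was the merged row with Hspa8, then Cryab, Hsp90aa1, Hspb8, Hspb1, Dnajb1, Hsph1, Hsf1, Hspa1b and Hspa1a. Of neighbours in that order, the ranges of Dnajb1 and Hsph1 overlapped, as did those of Hspa1b and Hspa1a. In the knockout-labelled libraries Hsp90aa1, Cryab and Hspb1 followed the merged row. Ranges overlapped between Hsp90aa1 and Cryab and between Cryab and Hspb1, but not between the merged row and Hsp90aa1. Hspb8 came next, then Dnajb1, Hsph1 and Hsf1 with overlapping ranges, then Hspa1b and Hspa1a. Hspb1 was thus below Hspb8 in every wild-type library and above it in every knockout-labelled one.

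**Figure D3:**
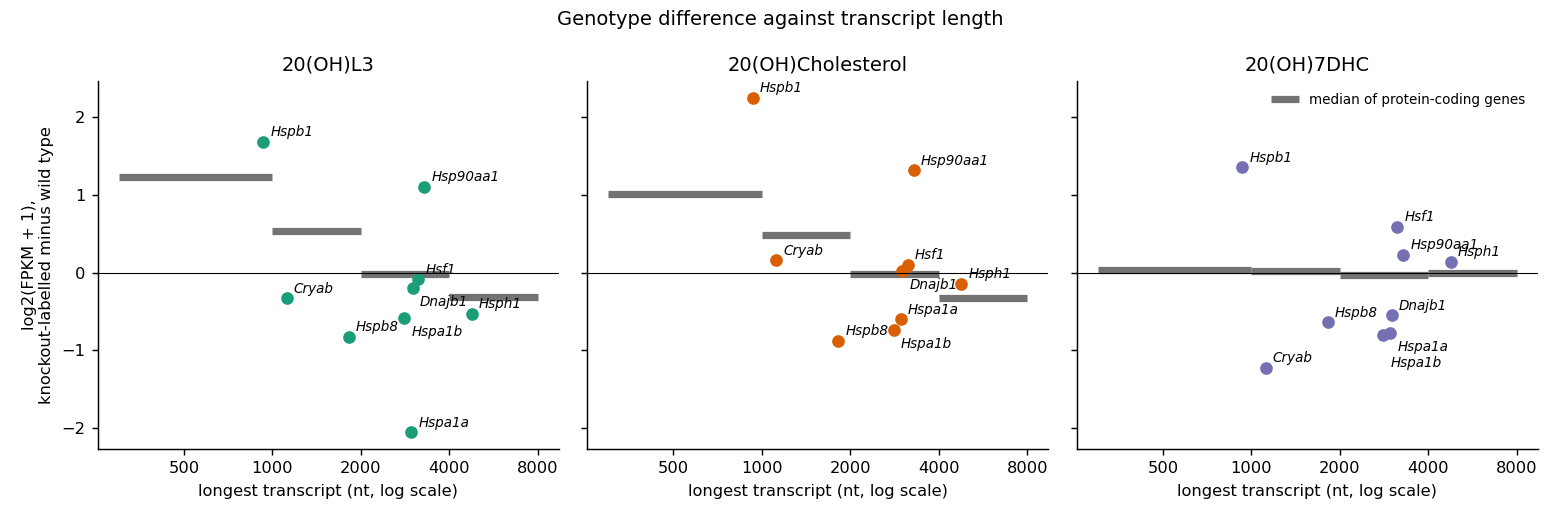
Knockout-labelled minus wild-type difference in log2(FPKM + 1) for the listed genes against the length of the longest transcript (nt, log axis), 1 panel for each sterol, with grey bars for the median of protein-coding genes in 4 length classes. Hspb1, at 930 nt, lies above its class median in all 3 panels, also under 20(OH)7DHC where the class median is 0.03, and Hspb8, at 1816 nt, lies below its own.

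The sterols were compared pairwise at the same dose and time. 20(OH)7DHC differs from 20(OH)Cholesterol by an extra double bond in the ring system, and lumisterol is a stereoisomer of 7-dehydrocholesterol. With genotype in the model, 3 pairs and 9 members gave 27 comparisons, with p-values adjusted over all rows. None passed, and 0 had an unadjusted p under 0.05. The background was as low, with 0.0395% of rows called between 20(OH)L3 and 20(OH)7DHC, 0.0395% between 20(OH)Cholesterol and 20(OH)7DHC and 0.0% between 20(OH)L3 and 20(OH)Cholesterol. For the last pair, 242 of the 12673 rows had an unadjusted p under 0.05, and limma with a robust prior called 2.

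Among the members, the greatest difference between sterols was that of Cryab, higher by 0.55 on the log2 scale under 20(OH)Cholesterol than under 20(OH)7DHC. The smallest unadjusted p was 0.107 in limma, for Hsph1, which was lower by a log2 difference of -0.51 under 20(OH)Cholesterol than under 20(OH)7DHC. Over the 27 comparisons the 95% intervals reached from -1.54 (Hspa1a) to 1.62 (Cryab). Hspb8 and Dnajb1 had every interval within 2-fold. For the other members differences of 2-fold in at least 1 direction are not excluded by these libraries, and the sterols are not shown to act alike.

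Within single sterols there is 1 library per genotype, hence no test, and a difference of at least 1 in log2(FPKM + 1), which understates low genes, was used as a description. Under 20(OH)L3 Hspb1 and Hsp90aa1 were higher by that measure (17.0% of all rows) and Hspa1a was lower (16.5%). Under 20(OH)Cholesterol the same pair was higher (14.3%) and 0 members were lower (15.4%), while the plain FPKM ratio was 0.395 for Hspa1a and 0.488 for Hspa1b. Under 20(OH)7DHC Hspb1 was higher (4.59%) and Cryab was lower (10.1%), and the plain FPKM ratios of Hspa1a and Hspa1b were 0.367 and 0.470. Hspb1 was therefore past this difference under each sterol.

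Chaperone genes were followed in lists by role, which also hold the members with a row of their own. Member results, such as the rise of Hspb1, are therefore counted again in these lists. Across all chaperone and co-chaperone lists, 102 of 131 listed genes were tested. Those that rose were 3 (Hspb1, Cct5 and Flnc, the last a client in the autophagy list), beside 2.43% of all rows. Those that fell were 3 (Hspa12a, Hspa12b and Dnajc9), beside 6.64% of all rows. The median log2 difference was 0.11 where that of all rows was -0.00. Quantities below are log2 differences, knockout-labelled minus wild type, unless given as FPKM.

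In the HSP70 and HSP110 list 2 of 13 tested genes fell, none rose and the median was -0.60. All knockout-labelled values lay below wild type in 8, among them the members Hspa1a and Hspa1b. Of all rows 6.64% were called lower and 22.9% lay below in this way. Hspa12a and Hspa12b, atypical members of the family, were those that fell. Hspa12a went from 4.28 ± 0.439 to 0.633 ± 0.312 FPKM (SD, n = 3), a difference of -1.71 (limma adjusted p = 0.0309). Hspa12b, known from endothelial cells, went from 6.54 ± 1.47 to 2.11 ± 0.339 FPKM (SD, n = 3), a difference of -1.27 (limma adjusted p = 0.0375), while the summed endothelial markers reached at most 1.03 FPKM in wild type and 3.35 in the knockout-labelled libraries. Hspa13 (-0.74, limma adjusted p = 0.0936) and Hspa14 (-0.57, limma adjusted p = 0.121) did not pass.

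Of 33 J-domain co-chaperones tested, 1 fell and the rest did not pass, beside 6.64% of all rows called lower, and the median was 0.01. Dnajc9, a J-domain protein that chaperones histones, went from 25.3 ± 1.00 to 9.92 ± 1.77 FPKM (SD, n = 3), a difference of -1.28 (limma adjusted p = 0.0276). Dnajb9, an endoplasmic reticulum co-chaperone, was at -0.93 (limma adjusted p = 0.0628), and Dnajc11 and Dnajc2 were at 0.78 and 1.44 without passing (limma adjusted p = 0.0748 and 0.0847).

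HSP90 and its co-chaperones gave no call, where 2.43% of all rows were called higher and 6.64% lower. The 3 HSP90 genes tested had a median of 0.58. The 13 co-chaperones tested had a median of 0.53, with 6 higher and 1 lower in every knockout-labelled library, beside 20.2% and 22.9% of all rows. Fkbp4, the immunophilin of steroid receptor complexes, had means of 47.9 and 96.4 FPKM, a difference of 0.96 (limma adjusted p = 0.0607), and Unc45a, a myosin chaperone, was at 1.11 (limma adjusted p = 0.0609). Both passed once the length trend was removed (limma adjusted p = 0.0439 and 0.0490), a setting in which 435 of 11529 rows were called higher. Cdc37, which brings kinases to HSP90, had means of 123 and 302 FPKM (1.22, limma adjusted p = 0.0723). Nudc, also an HSP90 partner, was at 0.74 (limma adjusted p = 0.0724), and Trap1, the mitochondrial HSP90, at 0.58 (limma adjusted p = 0.168).

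Nucleotide exchange and handover factors gave no call among 9 tested, with a median of 0.21. Of all rows 2.43% were called higher and 6.64% lower. Bag1 had means of 115 and 296 FPKM (1.27, limma adjusted p = 0.0662) and Hspbp1 was at 0.93 (limma adjusted p = 0.0774). Stip1 (HOP), which hands clients from HSP70 to HSP90, was lower at means of 172 and 110 FPKM (-0.64, limma adjusted p = 0.103) and passed as lower with the length trend removed (limma adjusted p = 0.0498). With that setting 869 of 11529 rows were called lower. Bag6 was at 0.92 (limma adjusted p = 0.132).

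Among 11 chaperonin and mitochondrial chaperone genes 1 rose, none fell, and the median was 0.72, with 6 higher in every knockout-labelled library. Of all rows 2.43% were called higher and 20.2% lay above in this way. Cct5, a subunit of the cytosolic chaperonin that folds actin and tubulin, went from 126 ± 17.4 to 336 ± 112 FPKM (SD, n = 3), a difference of 1.35 (limma adjusted p = 0.0471). Its fellow subunits Cct3 (1.22, limma adjusted p = 0.0822) and Cct4 (0.91, limma adjusted p = 0.0739) and mitochondrial Grpel1 (1.03, limma adjusted p = 0.0773) did not pass.

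The other heat shock factors gave no call among 4 tested genes, Hsf1 included, with a median of 0.17. Of all rows 2.43% were called higher and 6.64% lower. Hsf2 was at 0.14 (limma adjusted p = 0.616), Hsf4 at -0.88 (limma adjusted p = 0.136) and Hsbp1, which binds the trimerised factor, at 0.67 (limma adjusted p = 0.252).

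The chaperone-assisted autophagy list, in which HSPB8 and BAG3 hand damaged filamin to degradation, had 1 of 5 tested genes called, as higher, beside 2.43% of all rows. Flnc, filamin C, rose from 32.0 ± 2.197 to 64.2 ± 9.35 FPKM (SD, n = 3), a difference of 0.97 (limma adjusted p = 0.0454). Bag3 itself had means of 60.2 and 70.1 FPKM (0.21, limma adjusted p = 0.464), Sqstm1 means of 909 and 1660 FPKM (0.83, limma adjusted p = 0.146), and Synpo2 was at 0.05 (limma adjusted p = 0.924). Hspb8 had the opposite sign to Flnc in this list.

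Some contractile genes rose, as Hspb1 did. In the myofibroblast list 4 of 14 tested genes rose and none fell, with a median of 1.11, beside 2.43% of all rows called higher, and 11 were higher in every knockout-labelled library, as were 20.2% of all rows. Tpm2, β-tropomyosin, had means of 343 and 2258 FPKM (2.66, limma adjusted p = 0.0146) and Cald1, caldesmon, 538 and 2961 FPKM (2.23, limma adjusted p = 0.0499). Lmod1, a nucleator of smooth muscle actin filaments, was at 1.21 (limma adjusted p = 0.0266) and Cnn2, calponin 2, at 1.38 (limma adjusted p = 0.0352). Their part in the level of Hspb1 was not tested.

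**Figure D4:**
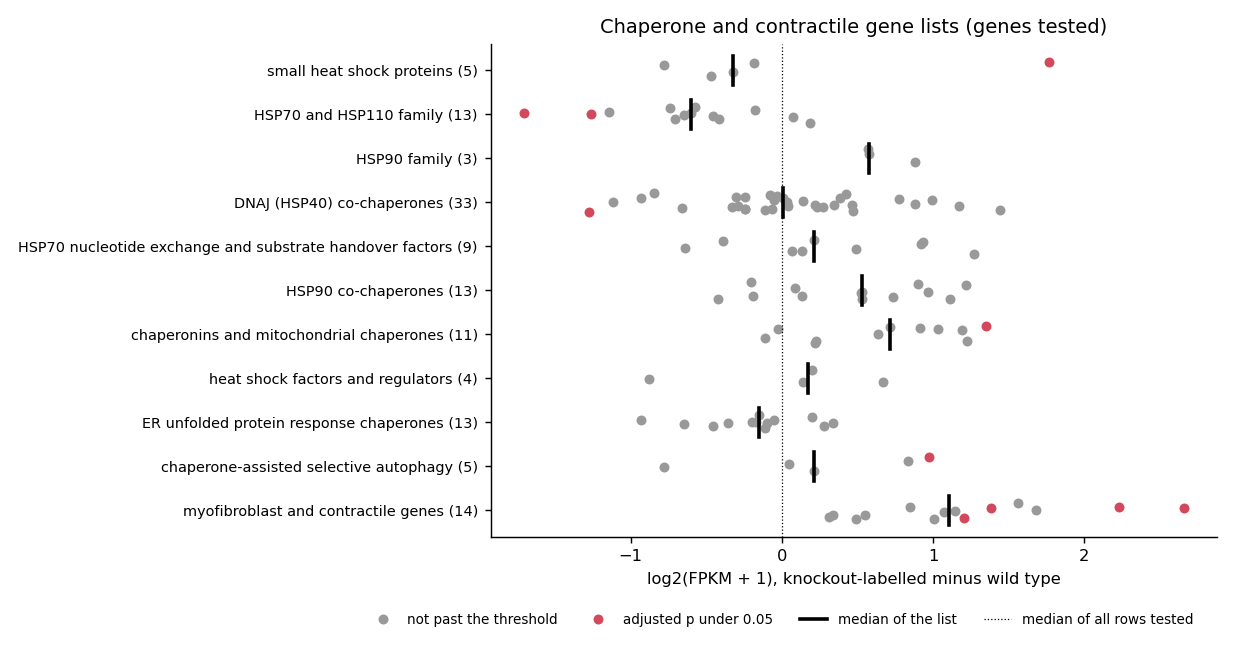
Knockout-labelled minus wild-type difference in log2(FPKM + 1) of every tested gene in each chaperone list and in the contractile list, with a black bar for the list median, red for genes past an adjusted p of 0.05, a dotted line for the median of all rows, and the number tested in brackets. The HSP70 and HSP110 list has a median of -0.60 and the contractile list one of 1.11.

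Rows with the pattern most like Hspb1 over the 6 libraries, among those of at least 5 FPKM on average, were Myl9 (Pearson r = 0.999), Ddb1 (0.998), Slc35e4 (0.996), Mrpl38 (0.996) and Aven (0.996). For Hsp90aa1 they were Gm15964 (Pearson r = 0.998), Naa15 (0.998), Gabarap (0.998), Ascc1 (0.998) and Jkamp (0.997). All rows share the same 6 libraries, their depth and the split by genotype, and these coefficients over 6 points are a description.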

How the data were processed

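The authors deposited 1 table of FPKM values per gene and library, per the file headers. Tools named in the submitters' processing notes are Cuffdiff, Cufflinks 2.2.1 and STAR 2.5.4b, with GRCm38 as the build. The strand setting and the treatment of reads with several matches were not given in the sources used here. Genotype and treatment in the labels set the groups, and the check of the genotype labels by the targeted gene is not reported here.

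The 12673 rows that averaged at least 1 FPKM were tested on log2(FPKM + 1) with limma 3.58.1 in R 4.3.3, with additive terms for genotype and sterol, a trended prior and Benjamini-Hochberg adjustment over all rows at 0.05. The 2 residual degrees of freedom come from libraries that share no genotype and sterol, so p-values measure only the spread between these pooled libraries, which may be technical. Fold changes on this scale understate those of low genes. Tests were also run on simulated data with the same spread in both genotypes, unlike these libraries, so that run does not measure their error rate. Alternatives were the pseudocount, the level filter, scaling, the prior, removal of the trend on transcript length and leaving out libraries. Depth came from the steps between low values: 97.1% to 98.4% of them fell within 0.05 of a whole number of fragments, against 10% by chance, and these fragments served as a description only.

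All listed members were described, with up to 4 genes of smallest p in each of 11 lists and the 5 rows most like Hspb1 and Hsp90aa1. Members and lists were chosen with earlier results of these data known. Positions and transcript lengths are from GENCODE M21 on GRCm38, promoters from RefSeq on GRCm38.p6. Of the rows, 1061 merge several symbols and stayed out of the lists.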

Additional observations from a re-analysis of the deposited data

Results flagged for a closer look

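For 4 of the listed genes the difference between genotypes had opposite signs under different sterols, with 1 library for each, and these differences between sterols were not tested. Cryab differed by -1.23 on the log2 scale under 20(OH)7DHC and by 0.16 under 20(OH)Cholesterol. Hsph1 differed by -0.53 under 20(OH)L3 and by 0.14 under 20(OH)7DHC. Dnajb1 differed by -0.55 under 20(OH)7DHC and by 0.0206 under 20(OH)Cholesterol. Hsf1 differed by -0.0862 under 20(OH)L3 and by 0.59 under 20(OH)7DHC. In all 4 genes the knockout-labelled 20(OH)7DHC library gave one of these values.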

How the results depend on the processing

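The 1150 genotype calls became 267 with no level filter, 2071 without the sterol term, and 127, 0 and 2010 without both libraries of 20(OH)L3, 20(OH)Cholesterol and 20(OH)7DHC. Leaving out 1 library gave 0 to 1925 calls, the 0 without either 20(OH)Cholesterol library, where 1897 and 1886 rows had an unadjusted p under 0.05 in limma. Quantile scaling moved the split from 308 higher and 842 lower to 557 and 848. Between sterols, the 5 calls each of 20(OH)Cholesterol and 20(OH)L3 against 20(OH)7DHC became 3 for the former with a pseudocount of 0.1 or a filter at 5 FPKM and 3 for the latter with the length trend removed, and 0 for both with no filter. They were 0 to 7 and 0 to 0 with 1 library left out. Calls between 20(OH)L3 and 20(OH)Cholesterol went from 0 to 1 with that pseudocount, 2 with a robust prior, and 0 to 0 with 1 library left out. The cause was not tested. Hspb1 stayed higher in all 18 alternatives, at 1.31 to 1.97, and past the threshold in 11. Hspb8 passed in 6 and Hsp90aa1 in 3, the latter all without 1 or both libraries of 20(OH)7DHC. Leaving out either library of a sterol, or both, gives the same genotype estimate, so these alternatives are not separate checks. The sterol term compares the genotypes within sterols, and the labels carry no replicate numbers for another block. Depth and shared sequence both limit the Hspa1a and Hspa1b values.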

Other observations

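Chaperones of the endoplasmic reticulum showed no call among 13 tested genes of the unfolded protein response list, with a median log2 difference of -0.15 between knockout-labelled and wild-type libraries. Of all rows 2.43% were called higher and 6.64% lower. Hspa5 (BiP), the HSP70 of that compartment, had means of 681 and 440 FPKM, a difference of -0.65 (limma adjusted p = 0.152). Its exchange factor Hyou1 was at -0.46 (limma adjusted p = 0.233) and Sel1l, of the degradation machinery, at 0.28 (limma adjusted p = 0.348).

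Several chaperone genes occur only in merged rows and were left out of the lists. The row of Gm38670 and Hspb6, a small heat shock protein of smooth muscle, read 25.2, 31.8 and 31.6 FPKM in wild type and 49.7, 62.7 and 50.4 FPKM in the knockout-labelled libraries under 20(OH)L3, 20(OH)Cholesterol and 20(OH)7DHC, without overlap. The rows with Ahsa1, Ptges3l, Dnajb14 and Cct6a also lay above every wild-type value in every knockout-labelled library, and that with Dnaja1 lay below. Of all rows tested 20.2% lay above and 22.9% below in this way. The row of Mir3082 and Stub1, the ubiquitin ligase that works with HSP70, ranged from 86.2 to 1510 FPKM over the 6 libraries with the genotypes overlapping. The row of Mir207 and Dnaja1 read 133 FPKM in the wild-type 20(OH)Cholesterol library and 12.2 to 20.3 FPKM in the other libraries.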
